A study of Mus musculus with 12 samples.

Results

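This account concerns how chromatin accessibility differed between Zfp266 knockout (KO) fibroblasts after 72 h of reprogramming and the same kind of KO fibroblasts that were not induced. The members were regions open in 1 of the 2 states only. A gained peak was a peak of the 72 h KO list with a −log10 q of 5 or more, which is a measure of confidence that the region is open, and with no overlap of even 1 bp with any MEF KO peak. A lost peak was the reverse. There were 58676 gained peaks, 50.4% of the 116373 peaks of the 72 h KO list that reached the threshold, and 60529 lost peaks, 48.8% of the 123997 such peaks of the MEF KO list. Together they made up 119205 of the 661623 peaks in the 4 deposited lists.

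Open chromatin was measured by Omni-ATAC-seq, in which the Tn5 transposase cuts accessible DNA, in 12 libraries of 50000 cells each. The cells were P2 mouse embryonic fibroblasts (MEFs) of strain 129 from E12.5 embryos. The MEFs of all 4 groups of 3 libraries carried Cas9 and a doxycycline-inducible MYC, KLF4, OCT4 and SOX2 (MKOS) transgene, and all were transduced with a guide RNA and harvested 96 h later. The groups were MEF control and MEF KO, kept in MEF medium, and 72 h control and 72 h KO, given ESC medium for the last 72 h with doxycycline (300 ng/ml) and with vitamin C at 10 µg/ml. The controls are labelled wild type and received a non-targeting guide, and the KO groups received a guide against Zfp266.

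These groups have limits as a model. The KO was made in a transduced population, not in a clone, and the MEFs came from chimeric embryos, so cells of the host embryo can be present. Per the study's methods, the cells to be reprogrammed were diluted among wild-type MEFs before transduction and later sorted for the mOrange reporter of the transgene, and the MEF samples were neither diluted nor selected for the reporter. Medium, doxycycline, dilution, reporter sorting and transgene induction therefore differed together between the MEF and 72 h groups and cannot be told apart. In a bulk library, fewer cells of a type and less accessibility per cell also cannot be told apart.

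In fibroblasts, enhancers are held open by AP-1, TEAD and RUNX factors. The reprogramming factors OCT4, SOX2 and KLF4 bind DNA at sites that are often closed in fibroblasts, and cells on the path to pluripotency close somatic enhancers while opening new ones. Zfp266 encodes a KRAB zinc finger protein, a class of repressor that often binds transposable elements. In mice the B1 and B2 elements are short interspersed nuclear elements (SINEs) spread through the genome in very many copies.

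The following reference sequences, 120 bases each from GRCm38 on the strand of the match, show the 3 sequence features on which the comparison of gained and lost peaks turns. Capitals mark the match. The first pair are gained peaks, open in 72 h KO and 72 h control but in neither MEF list, with an OCT4-SOX2 composite motif, the joint binding site of the 2 factors. The Tacr1 stretch is chr6:82377517-82377636 (plus strand), in a peak 24611 bp upstream of the start site, and the Trmt10a stretch is chr3:138136251-138136370 (minus strand), in a peak 6985 bp upstream.
Tacr1: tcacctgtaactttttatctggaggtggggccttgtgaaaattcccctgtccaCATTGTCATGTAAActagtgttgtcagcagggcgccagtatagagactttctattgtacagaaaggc
Trmt10a: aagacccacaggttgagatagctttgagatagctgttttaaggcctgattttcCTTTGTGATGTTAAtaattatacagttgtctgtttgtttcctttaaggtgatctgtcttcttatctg

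The second pair are lost peaks, open in both MEF lists and in neither 72 h list, with the AP-1 motif TGAGTCA, bound by FOS and JUN dimers. The Slc7a12 stretch is chr3:14505982-14506101 (plus strand), in a peak 25399 bp downstream of the start site, and the Krt23 stretch is chr11:99472135-99472254 (plus strand), in a peak 20882 bp downstream.
Slc7a12: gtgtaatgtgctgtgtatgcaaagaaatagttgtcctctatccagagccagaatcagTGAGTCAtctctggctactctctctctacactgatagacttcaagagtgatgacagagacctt
Krt23: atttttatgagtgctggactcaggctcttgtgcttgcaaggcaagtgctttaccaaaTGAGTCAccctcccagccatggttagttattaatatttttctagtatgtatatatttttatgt

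The last pair are gained peaks with no peak in either control list, each over an interval that the authors list as more open in KO at 72 h, with the string AGCCTGGTC taken from the B1 element. The Zwilch stretch is chr9:64148989-64149108 (plus strand), in a peak 24234 bp downstream of the start site, and the Mbl2 stretch is chr19:30209038-30209157 (minus strand), in a peak 23664 bp upstream.
Zwilch: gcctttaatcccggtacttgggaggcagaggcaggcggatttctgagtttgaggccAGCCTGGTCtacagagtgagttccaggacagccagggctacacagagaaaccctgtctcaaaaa
Mbl2: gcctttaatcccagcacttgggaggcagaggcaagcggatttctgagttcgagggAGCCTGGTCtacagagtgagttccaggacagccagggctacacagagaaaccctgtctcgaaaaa

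Each group had 1 peak list called on its 3 libraries merged, so the peak values have no replicate error. The relative depth of a list, taken as the summed size factors of its libraries, was 3.67 for MEF KO, 3.53 for MEF control, 2.54 for 72 h KO and 2.76 for 72 h control. The relative depth of the 72 h KO list thus differed by −30.9% from the MEF KO list and by −8.23% from the 72 h control list. Chromosome Y held 122 peaks past the threshold in 72 h KO, of which 91 were gained (74.6%), against 47 in MEF KO, of which 13 were lost (27.7%). On chromosome X, 63.1% of the 72 h KO peaks were gained and 55.1% of the MEF KO peaks were lost, while on every autosome the gained share lay between 42.5% and 55.0%. Whether the makeup of the sorted cells had a part in the gained and lost peaks was not tested.

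The targeted gene had an open start site in every list. Fold enrichment, the read density of a peak over its local background, was 5.46 at the Zfp266 start site (gene at chr9:20495068-20521417) in MEF control, 5.08 in MEF KO, 5.03 in 72 h control and 4.52 in 72 h KO. A start site peak does not report on a guide-made mutation inside the gene, so this does not check the KO. Of 10 fibroblast markers, 9 had a start site peak in both KO lists and Lum, a matrix proteoglycan, had one in MEF KO only. Of 7 macrophage markers 4 had no start site peak in the KO lists, as did 3 of 7 endothelial markers. The Pecam1 start site, an endothelial gene, had a fold of 5.55 in MEF KO and no peak at 72 h. The endothelial genes Kdr, Tek and Erg had peaks in both KO lists (5.98, 3.57 and 3.39 in MEF KO, 3.86, 4.00 and 3.65 in 72 h KO). Of the macrophage genes, Csf1r had a peak in MEF KO only (2.92). Cd68 had one in both KO lists (1.83 and 1.83), and Cx3cr1 had peaks below the threshold (2.00 and 2.19). The part of other cell types in the lost peaks was not tested.

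The remodelling over 72 h touched about as many regions in KO as in control cells. Control cells gained 63011 peaks (51.5% of the 72 h control list) and lost 60566 (48.6% of the MEF control list). The ratio of gained to lost peaks was 0.969 in KO and 1.04 in control. Shared peaks numbered 57697 in the 72 h KO list and 63468 in the MEF KO list, and they were wider than gained peaks, with a median width of 1005 bp against 635 bp.

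**Figure D1:**
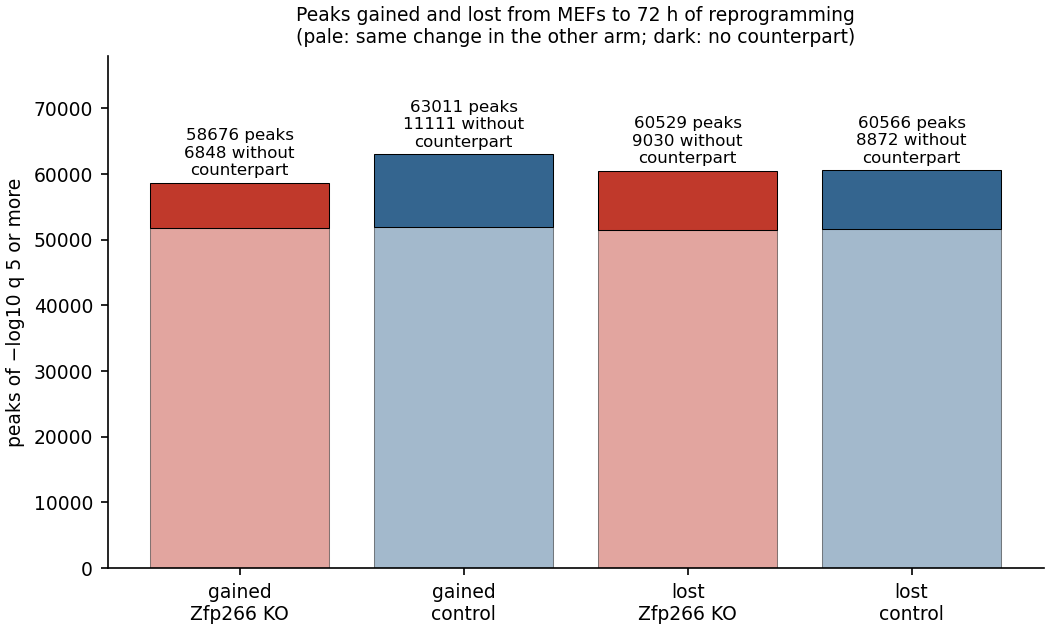
Number of peaks gained (72 h list) and lost (MEF list) in KO and control cells (y axis, peaks of −log10 q 5 or more), with the part that has no counterpart in the other arm in the dark colour. The totals are 58676 gained and 60529 lost in KO and 63011 gained and 60566 lost in control, and the parts without a counterpart are a small share of each bar.

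Gained and lost KO peaks had a similar median strength, but more of the strongest were gained. The median fold was 3.40 for gained peaks (quartiles 2.80 and 4.43) and 3.26 for lost peaks, and a fold of 5 or more was reached by 9832 gained and 7702 lost peaks. A fold of 7 or more was reached by 1604 gained and 718 lost peaks. Just inside the threshold, at a −log10 q from 5 to 5.5, the 2727 gained peaks had a median fold of 2.53 and just outside it, from 4.5 to 5, 2820 further peaks had 2.45. A further 30961 peaks of the 72 h KO list and 27719 of the MEF KO list overlapped nothing in the other list but did not reach the threshold.

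The next comparison asked whether KO cells opened or closed regions that control cells did not, which bears on whether the KO speeds remodelling. A KO gained peak had a counterpart where it overlapped a control gained peak. Of the KO gained peaks, 51828 had one and 6848 had none, or 11.7% (95% Wilson interval 11.4 to 11.9). Of the KO lost peaks, 51499 had one and 9030 had none, or 14.9% (14.6 to 15.2). In the other direction, 11111 control gained peaks had no KO counterpart, or 17.6% (17.3 to 17.9), and neither had 8872 control lost peaks, or 14.6% (14.4 to 14.9). These intervals cover counting error only, and neighbouring peaks are not independent.

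By this count the KO gained fewer regions of its own than the control, and lost about as many. The difference on the gained side was smaller at equal list length. With the 116373 highest-ranked peaks of each list, a comparison added after the data were seen, 14.0% of the 58676 KO gained peaks and 14.7% of the 59169 control gained peaks had no counterpart, and on the lost side the shares were 15.3% and 14.5%. Gained peaks unique to the KO were therefore not more frequent than those unique to the control under either count.

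Peaks without a counterpart were mostly weak. Their median fold was 2.73 on the gained side, against 3.52 for peaks gained in both arms, and 309 of 6848 had a fold of 5 or more. Below a fold of 2.5, 27.1% of KO gained peaks lacked a counterpart (40.7% of control gained peaks), and at a fold of 7 or more 2.24% did (2.47%). On the lost side the share went from 34.4% (31.9% in control) below 2.5 to 6.69% (8.39%) at 7 or more.

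**Figure D2:**
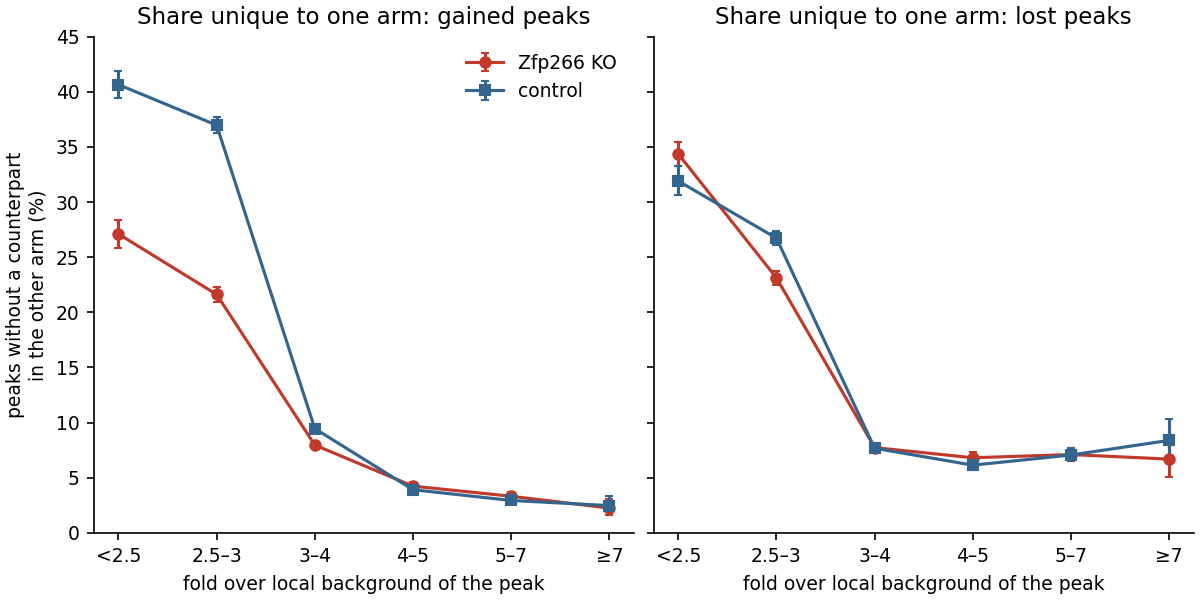
Percent of gained (left) and lost (right) peaks without a counterpart in the other arm, by fold enrichment of the peak, for KO and control with 95% Wilson intervals. The share is highest for the weakest peaks (27.1% of KO and 40.7% of control gained peaks below a fold of 2.5) and near 2% for gained peaks of a fold of 7 or more in both arms.

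Most KO gained peaks without a counterpart did have some control peak at the same place. At 3162 (46.2%) the control had a peak at 72 h only, with a median −log10 q of 4.2 and a median fold of 2.26 against 2.63 in KO. At 2006 (29.3%) it had a peak in both states, and its MEF peak was weak (median fold 2.13) while its 72 h peak, at 3.39, stood beside 3.30 in KO. At 1633 (23.8%) neither control list had a peak, at 47 the control had a MEF peak only, and only 4 of the 1633 reached a fold of 5. Of the 309 strong peaks without a counterpart, 260 were of the kind with a control peak in both states, so at these the arms differed by a weak peak in MEF control. The control gained peaks without a KO counterpart were divided in a similar way, with 2788 (25.1%) that met no KO peak.

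Lost peaks showed the mirror pattern. Of the 9030 without a counterpart, 4536 (50.2%) met a control peak in MEFs only (median −log10 q 4.15), 3461 (38.3%) met control peaks in both states and 980 (10.9%) met none. Where control peaks were present in both states, the median fold was 3.43 in MEF control, 3.36 in MEF KO and 2.04 in 72 h control, a weak remnant (median −log10 q 2.78) that had no peak in 72 h KO. These held 512 of the 544 lost peaks without a counterpart that had a fold of 5 or more. The remnant had its own mirror, since 2870 control lost peaks met KO peaks in both states, with a median fold of 2.07 in 72 h KO.

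The strength of accessibility in the KO was close to that in control cells. Over the 114123 peaks of 72 h KO that overlapped a 72 h control peak, the median log2 ratio of KO to control fold was −0.015 (quartiles −0.11 and 0.08). At the peaks gained in both arms the KO fold was the higher one in 43.0% of cases, and at the peaks lost in both arms the MEF KO fold was the higher one in 39.7%. At the 5168 KO gained peaks that lacked a counterpart but met a 72 h control peak it was higher in 76.3%, with a median log2 ratio of 0.15, which the rule that chose them favours.

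The strongest gained peaks were open to a like degree in both arms. The 8 with the highest fold in KO within 50 kb of a protein-coding start site had folds of 9.57 to 10.6 in 72 h KO and 8.68 to 12.4 in 72 h control, with no peak in either MEF list. The highest was 18114 bp upstream of Larp1b, which encodes an RNA-binding protein, at chr3:40931531-40931898 within Abhd18 (10.6 in KO and 9.69 in control). The next was 26108 bp upstream of Gdpd4 within Pak1, at chr7:97893549-97894146 (10.5 in KO and 12.4 in control). The others were nearest to Rnf32, Tmtc2, Nox4 (an NADPH oxidase), Rpe65 (the retinoid isomerase of the visual cycle), the vomeronasal receptor gene Vmn2r43 and B930094E09Rik. The nearest gene is a position only, and no target is implied.

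The strongest lost peaks were likewise common to both arms, with 1 exception. Their folds ran from 8.64 to 9.82 in MEF KO and from 8.24 to 10.1 in MEF control. The highest lay downstream of Slc7a12, a solute carrier, at chr3:14505757-14506436 (9.82 in MEF KO and 9.41 in MEF control). It was followed by peaks near Chmp3, an ESCRT-III subunit (9.58 and 10.1), the keratin gene Krt23 (9.09 and 8.58), Zfp536 (9.05 and 9.50), the olfactory receptor gene Olfr684 (9.04 and 8.29), Xpnpep2, Ccdc71l and Chst1. At Olfr684 a 72 h control peak of fold 2.69 remained, and at the other 7 no list at 72 h had a peak.

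The strongest KO gained peaks without a counterpart had as strong a peak in 72 h control. The peak 29693 bp upstream of Grhl2, a regulator of epithelial genes, at chr15:37203210-37203476, had a fold of 8.84 in 72 h KO and 8.93 in 72 h control. MEF control had a peak of 3.43 there and MEF KO had none. Peaks at Spats2l (7.79 in KO, 7.57 in control), 9330182L06Rik (7.68 and 7.61), Parvg (7.40 and 7.27) and Mageb18 (7.21 and 7.16) differed in the same way, by a MEF control peak of 1.81 to 2.43. At Itgb8, an integrin subunit, neither MEF list had a peak and the 72 h folds were 7.19 in KO and 6.94 in control, but the 72 h control peak started slightly further out and touched a neighbouring MEF control peak. None of these 6 peaks was an opening that 72 h control cells lacked.

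The strongest KO lost peaks without a counterpart were those where 72 h control cells kept a weak peak. At Epas1, which encodes the hypoxia factor HIF-2α, the peak at chr17:86769546-86770443 had a fold of 8.42 in MEF KO and 7.77 in MEF control, none in 72 h KO and 2.41 in 72 h control. The peaks near Dcaf6, Fam169b, the arginine transporter gene Slc7a1 and Gcnt2 had MEF KO folds of 8.01 to 8.37 and 72 h control folds of 2.07 to 3.46. At all 6, Olfr684 included, 72 h KO had no peak and the 72 h control peak was lower than the MEF control peak, at Gcnt2 3.46 against 7.16.

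At regions open in both KO lists, accessibility was on the whole slightly lower at 72 h. Of the 57697 shared peaks of the 72 h KO list, 5746 met a MEF KO peak below the threshold. The other 51951 had a median log2 change of fold of −0.20 (quartiles −0.51 and 0.11), with 960 (1.85%) up at least 2-fold and 2267 (4.36%) down at least 2-fold. At the 50820 peaks present in all 4 lists the median was −0.20 in KO and −0.22 in control, and the difference between the arms had a median of 0.0086 (quartiles −0.10 and 0.13).

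Selecting peaks by one arm favoured that arm. Where the control peak was up at least 2-fold (1043 peaks) the median log2 change was 1.18 in control and 1.08 in KO, and where the KO peak was up (913) it was 1.14 in control and 1.17 in KO. Where the control peak was down (2613) the medians were −1.16 in control and −1.07 in KO, and where the KO peak was down (2207) they were −1.13 and −1.14. In each of the 4 sets the arm used for the selection had the larger median change.

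Among the shared peaks, the largest higher value at 72 h was at the start site of Zfp42 (also called Rex1, a marker of pluripotent cells), at chr8:43306764-43307273. Its fold was 1.81 in MEF KO and 8.95 in 72 h KO, a log2 change of 2.30, and control cells had no MEF peak and 8.75 at 72 h. A peak 30898 bp from Slitrk6, a neuronal adhesion gene, had a log2 change of 2.26 in KO (1.97 to 9.43) and 1.27 in control (2.69 to 6.50). A peak 390502 bp from Hrh4, a histamine receptor gene, and one within Rims1, a synaptic gene, 339056 bp from its start site, had log2 changes of 2.24 each in KO. Of these, the Slitrk6 peak had the lowest 72 h control fold, and without replicates no error can be set on that difference.

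The largest lower values were at peaks near Slc38a9, a lysosomal amino acid sensor gene (6.77 in MEF KO to 1.65 in 72 h KO, log2 −2.04), Mkrn1 (log2 −2.01), Sfi1 (log2 −1.97) and Eif4e1b (log2 −1.89). In control cells the same peaks had log2 changes of −2.16, −1.92, −1.99 and −1.69. Both arms thus moved together at these regions.

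Gained and lost peaks lay far from start sites. Within 1000 bp of a start site were 425 gained peaks (0.724%, interval 0.659 to 0.796) and 483 lost peaks (0.798%, 0.730 to 0.872), against 11535 of the 57697 shared peaks of the 72 h KO list (19.7% to 20.3%). The median distance to the nearest protein-coding start site was 55452 bp for gained, 68815 bp for lost and 20660 bp for shared peaks. KO gained peaks without a counterpart lay nearer, at 32451 bp, than KO gained peaks with one, at 59687 bp, and than the control gained peaks without a counterpart, at 54509 bp. The start sites of 21911 protein-coding genes were classed by the peaks within 1000 bp of them in each KO list. At 569 (2.60%) the class was gained, with a peak at 72 h and none in MEFs. At 640 (2.92%) it was lost, and at 14272 (65.1%) it was shared. Promoters were thus mostly open in both states.

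Short sequence strings were counted on both strands in the 400 bp around each peak's midpoint, next to the share of all 240370 KO peaks past the threshold. A match is a string of letters and not a bound site. Lost peaks held the fibroblast strings. The AP-1 string, as in the Slc7a12 and Krt23 sequences above, was in 30.7% of lost peaks (interval 30.3 to 31.1), 13.8% of gained peaks (13.6 to 14.1), 17.2% of shared peaks and 20.4% of all. The TEAD string GGAATGT was in 11.3% of lost and 5.81% of gained peaks (all, 7.61%), and the RUNX string TGTGGTT in 14.3% and 11.3% (all, 11.1%). The CEBP string TTGCGCAA was rare, in 0.122% of lost and 0.029% of gained peaks (all, 0.102%).

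Gained peaks held the strings of the reprogramming factors more often than lost peaks did. The KLF string GGGNGTGG was in 21.5% of gained and 8.61% of lost peaks (all, 16.5%), the SOX string CATTGTT in 12.4% and 7.24% (all, 7.91%), and the OCT string ATTTGCAT in 3.61% and 2.54% (all, 2.56%). Of all 72 h KO peaks past the threshold, 20.2% held KLF, 9.46% SOX and 2.86% OCT. For KLF the gained share was thus near that of its own list. The OCT4-SOX2 composite of the Tacr1 and Trmt10a sequences was in 0.131% of gained (77 peaks) and 0.0198% of lost peaks (12 peaks; all, 0.0533%). The strings of GRHL, an epithelial factor (AACCNGGTT, 0.251% of gained and 0.299% of lost peaks; all, 0.327%), and of ESRRB, a later pluripotency factor (TCAAGGTCA, 0.731% and 0.795%; all, 0.728%), were no more frequent in gained than in lost peaks. The CTCF core was in 3.22% of shared peaks and in 0.353% of gained and 0.377% of lost peaks (all, 1.86%). Control gained and lost peaks had nearly the same shares, with AP-1 in 13.4% and 30.8% and KLF in 20.8% and 8.57%. Counted over the whole peak in place of 400 bp, the KLF string was in 32.7% of gained, 16.4% of lost and 41.9% of shared peaks and in 32.3% of all, so gained peaks were then near the share of all KO peaks.

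**Figure D3:**
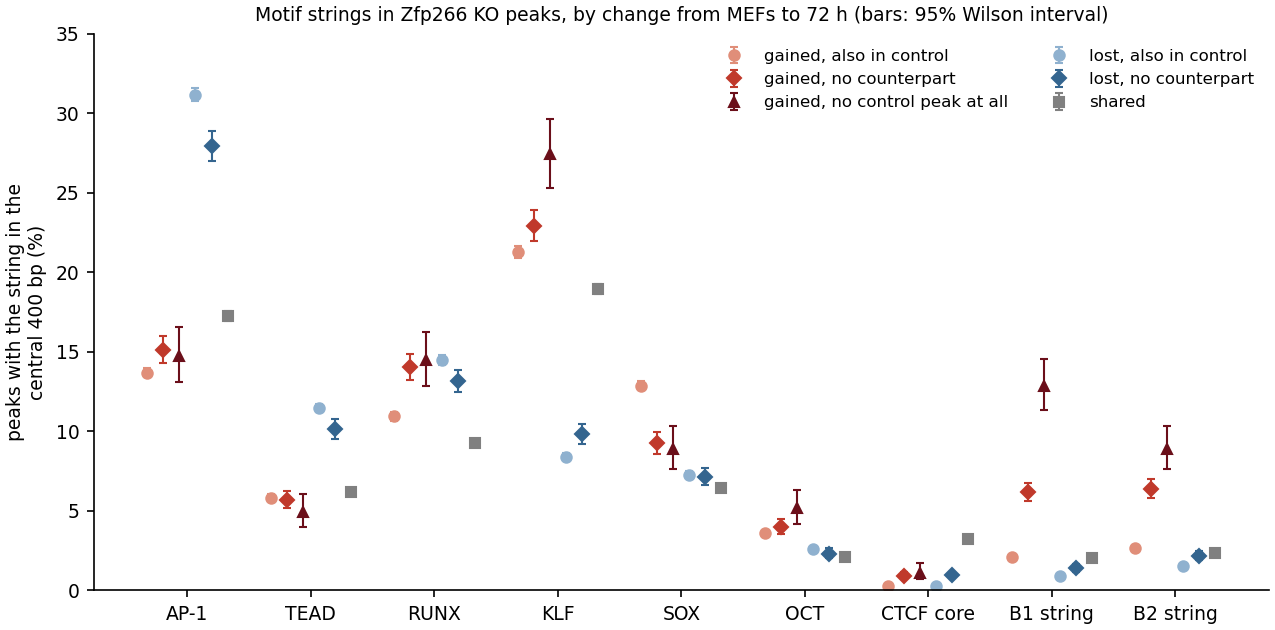
Percent of KO peaks with each string in the 400 bp at the peak midpoint (y axis), by class of peak, with 95% Wilson intervals. AP-1 is in 31.2% of peaks lost in both arms and 13.7% of peaks gained in both arms, and the B1 string is in 12.9% of KO gained peaks that met no control peak, against 2.08% of those gained in both arms.

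KO gained peaks without a counterpart differed from those gained in both arms in several strings. The B1 string, shown above at Zwilch and Mbl2, was in 6.15% of them (interval 5.60 to 6.74), against 2.08% of peaks gained in both arms, 1.92% (1.68 to 2.19) of control gained peaks without a KO counterpart and 1.77% of all KO peaks. At the 1633 that met no control peak it was in 12.9% (11.3 to 14.6). The B2 string GATGGCTCA was in 6.38% of KO gained peaks without a counterpart against 2.67% of peaks gained in both arms and 3.56% of control gained peaks without a KO counterpart (all, 2.23%). Between KO gained peaks without a counterpart and those gained in both arms the order of the AP-1, OCT and KLF strings depended on the window. AP-1 was in 15.1% and 13.7% at 400 bp and 21.1% and 21.8% over the whole peak. OCT was in 3.99% and 3.57% at 400 bp and 5.30% and 6.39% over the whole peak. KLF was in 22.9% and 21.3% at 400 bp and 31.1% and 32.9% over the whole peak. The RUNX string was in 14.0% and 10.9% at 400 bp (20.4% and 19.4% over the whole peak), the SOX string in 9.26% and 12.9%, and the CTCF core in 0.905% (62 peaks) and 0.280%. KLF was in 22.9% of KO and 19.0% of control gained peaks without a counterpart, and in control gained peaks without a counterpart RUNX was in 11.7%, SOX in 11.2% and the CTCF core in 0.684%. On the lost side the B1 string was in 1.37% (1.15 to 1.63) of KO lost peaks without a counterpart and 0.901% (0.823 to 0.986) of those lost in both arms, and the B2 string in 2.16% and 1.52%. In control lost peaks without a KO counterpart they were in 1.17% and 2.02%. Counted over the whole peak, KO lost peaks without a counterpart and those lost in both arms held B1 in 2.39% and 2.51% and B2 in 3.61% and 3.58%. The strings were searched one by one, so a KLF string and a B1 string can lie in the same window.

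A minority of the same peaks lay over intervals that the authors list as more open in KO at 72 h. Such an interval overlapped 1369 (1.18%) of all 72 h KO peaks past the threshold and 485 (7.08%) of the KO gained peaks without a counterpart, against 425 (0.820%) of those gained in both arms. At the KO gained peaks that met no control peak it was 331 of 1633 (20.3%, interval 18.4 to 22.3). The same libraries gave both the list and the peaks, so the overlap is not independent evidence. Among these 331 peaks the B1 string was in 31.4% and the KLF string in 48.0%, and among the 1302 over no listed interval they were in 8.14% and 22.2%. Of the 11111 control gained peaks without a KO counterpart, 7 lay over an interval listed as more closed in KO.

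Counts for each library were available at the listed intervals. Of the 1522 intervals listed as more open in KO at 72 h, 451 (29.6%) lay in a shared KO peak, 423 (27.8%) in a peak gained in both arms, 484 (31.8%) in a KO gained peak without a counterpart and 11 in a lost peak. At the 484, the median normalised count was 28.5, 26.3 and 28.7 in the 72 h control libraries and 77.3, 75.7 and 82.6 in the 72 h KO libraries, and 6.04 in the mean of the 6 MEF libraries. The control libraries stood above the MEF level at these intervals, and the KO libraries stood above both. A gained peak has no MEF KO peak by rule, so a low MEF level was favoured by the choice of intervals. At the 423, the medians were 110.6, 104.3 and 112.3 in control and 196.7, 196.8 and 204.8 in KO, with 9.83 in MEFs. At the 451, they were 126.3, 118.8 and 124.0 in control and 216.8, 206.7 and 220.7 in KO, with 104.3 in MEFs. In all 3 sets the arms do not overlap, with the KO values on top, which the listing fixed. The 44 intervals listed as more closed in KO that lay in peaks gained in both arms had medians of 208.9, 191.4 and 188.0 in control and 134.5, 123.6 and 127.8 in KO, with 8.48 in MEFs. Here the listing fixed the lower KO values, and the rule for a gained peak favoured the low MEF level.

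Intervals in KO gained peaks without a counterpart with the highest peak fold were named after their values had been seen. At Rab28, which encodes a small GTPase of the cilium, the normalised counts were 34.6, 28.1 and 36.6 in 72 h control and 140.0, 158.7 and 184.2 in 72 h KO (chr5:41674833-41676031), with a MEF mean of 3.80. At Serpinc1, the antithrombin gene, they were 24.6, 21.8 and 19.6 in control and 97.0, 113.2 and 101.6 in KO (chr1:160994388-160994863), with a MEF mean of 4.25. At Gigyf2, a translation regulator, they were 42.5, 39.0 and 33.9 in control and 173.8, 209.1 and 204.8 in KO (chr1:87297399-87298181). In each of these the lowest KO library was well above the highest control library. These intervals and the next 3 were listed as more open in KO at 72 h, which fixed that order. Intervals at Zwilch, a kinetochore gene (mean 26.3 ± 6.75 in control and 117.1 ± 4.00 in KO, SD, n = 3), Ubp1 (41.9 ± 3.86 and 105.7 ± 23.6) and Ybx3 (27.2 ± 5.32 and 121.6 ± 2.17) had the same order. At Ybx3 the MEF mean of 25.9 was close to the 72 h control mean, while at the other 5 it was between 3.80 and 10.0.

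At the 70 intervals listed in both the MEF and the 72 h table, all 12 libraries have counts, and the 72 h KO against MEF KO contrast was tested. These intervals were listed for a KO against control difference, and 60 lay in shared peaks, 7 in gained and 3 in lost peaks. With edgeR's quasi-likelihood test and Benjamini-Hochberg adjustment over the 70, 45 intervals (64.3%) rose from MEF KO to 72 h KO, 16 (22.9%) fell and 9 did not pass. With TMM scaling over the 70 intervals in place of the authors' size factors, 29 rose and 31 fell, so the split depends on the scaling. In control cells 47 rose and 13 fell, and 51 intervals had the same call in both arms. The median log2 change was 0.62 in KO and 0.89 in control.

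The named intervals that rose in KO, taken by the smallest adjusted p, rose as well in control. At the interval near Spink6, a protease inhibitor gene, the normalised count was 44.3, 51.4 and 33.3 in MEF KO and 585.5, 638.5 and 608.1 in 72 h KO. Its log2 change was 3.79 ± 0.11 (SE, edgeR adjusted p = 3.58e-136), and in control cells it was 4.50 ± 0.14. At Fryl (chr5:73215539-73217753) the counts were 45.9, 37.0 and 44.4 in MEF KO and 407.1, 408.4 and 390.6 in 72 h KO, a log2 change of 3.26 against 4.10 in control. The state groups do not overlap at either interval, and in both the MEF KO libraries start above the MEF control libraries, which have means of 20.2 and 17.0. At Tent5b, which encodes a poly(A) polymerase, the counts were 72.9, 78.9 and 73.7 in MEF KO and 483.1, 493.3 and 428.7 in 72 h KO, and the log2 change was 2.64 in KO and 2.59 in control.

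The named intervals that fell in KO, again taken by the smallest adjusted p, fell as well in control. At Ankdd1a (chr9:65539529-65540189) the counts were 254.9, 246.2 and 256.5 in MEF KO and 47.6, 45.5 and 54.0 in 72 h KO, a log2 change of −2.37 ± 0.12 (SE, edgeR adjusted p = 7.87e-66) against −2.24 in control. At Stab2, a scavenger receptor gene, it was −1.85 in KO and −2.13 in control, and at Adgrv1 −1.05 and −1.25. At Adsl, a purine synthesis gene, the interval at chr15:80854145-80855882 lay in a lost peak, with counts of 254.1, 256.4 and 242.3 in MEF KO and 72.3, 72.6 and 81.0 in 72 h KO, a log2 change of −1.75 against −1.22 in control. Another interval in a lost peak, 657452 bp from the start site of Sox5 and named after its values were seen, rose instead. Its mean count was 29.3 in MEF KO and 65.5 in 72 h KO (log2 change 1.115, edgeR adjusted p = 6.57e-08). The test of the difference between the arms passed at 25 of the 70 intervals, with the KO change above the control change at 9 and below it at 16.

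At 3 intervals, named after their values were seen, the test passed in both arms in opposite directions, with a fall in KO and a rise in control. At an interval 226954 bp from the start site of Chd7, a chromatin remodeller gene (chr4:8917108-8917613), the counts were 8.63, 7.33 and 14.3 in MEF control, 138.5, 132.3 and 113.1 in MEF KO, 22.4, 21.8 and 9.14 in 72 h control and 50.3, 43.1 and 60.3 in 72 h KO. The log2 change was −1.35 ± 0.16 in KO and 0.89 ± 0.34 in control (SE, edgeR adjusted p = 7.32e-17 and 0.0122), and the control states overlap. At C77080 (chr4:129266960-129267761) it was −1.10 ± 0.17 in KO and 1.07 ± 0.35 in control, and at Ccdc58 −0.39 ± 0.10 and 0.36 ± 0.18. KO libraries were above control libraries in both states at all 3. With TMM scaling the falls in KO passed (−2.08, −1.82 and −1.12), and no rise in control did (0.15, 0.34 and −0.38, adjusted p = 0.682, 0.378 and 0.0513).

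Of the 9 intervals where the KO change was above the control change, the 4 with the smallest adjusted p of the difference were also named after their values were seen. At Btbd9 (chr17:30438542-30440404) the counts were 321.4, 348.2 and 327.0 in MEF control, 430.3, 447.1 and 468.5 in MEF KO, 80.5, 64.4 and 52.2 in 72 h control and 227.8, 232.5 and 277.8 in 72 h KO. Both arms fell, by a log2 change of −0.88 ± 0.09 in KO and −2.32 ± 0.12 in control (SE, edgeR adjusted p of the difference = 8.31e-16, the smallest of the 70). Rasl10a (−0.45 in KO and −1.70 in control) and Scd3, a fatty acid desaturase gene (−1.02 and −2.06), fell further in control as well. At Cap2, an actin regulator gene, the change was 1.24 in KO and −0.11 in control, which did not pass (adjusted p = 0.685).

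**Figure D4:**
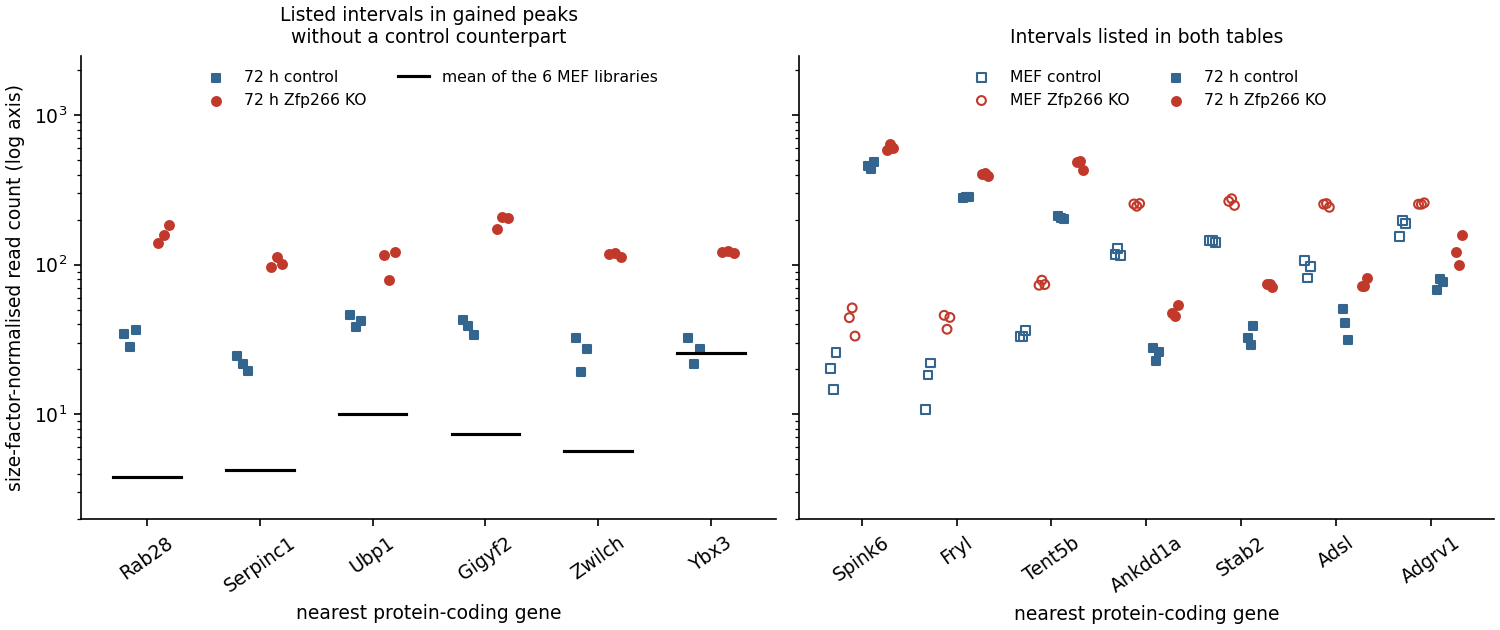
Normalised read count of each library (points, log axis) at the 6 intervals named in KO gained peaks without a counterpart (left, with a bar for the mean of the 6 MEF libraries) and at 7 of the 70 tested intervals (right). At Rab28 the 72 h KO libraries sit at 140.0 to 184.2 and the 72 h control libraries at 28.1 to 36.6, and at Ankdd1a both 72 h groups sit below both MEF groups.

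A gained or lost peak was assigned to the protein-coding gene with the nearest start site. A gained KO peak was nearest to 14034 genes (64.1%) and a lost KO peak to 11674 (53.3%), with a median of 1 gained and 1 lost peak per gene. A peak described below as near a gene is one for which that gene's start site is the nearest, which can be far off and inside another gene. The class of a start site goes instead by the peaks within 1000 bp of it in each list, so a gene with a gained start site, such as Gdf3, can have 0 gained peaks assigned to it. Genes with the most gained peaks were the teneurin gene Tenm3 (73), the cadherin gene Cdh8 (61), the protocadherin genes Pcdh20 (61), Pcdh9 (59), Pcdh17 (58) and Pcdh7 (55), the latrophilin gene Adgrl2 (58) and the lipid kinase gene Pik3c3 (58). Control cells had 61 to 80 gained peaks at the same genes. Genes with the most lost peaks were Flrt2 (81), Adgrl2 (79), Efna5 (75), Zfp608 (70), Cited2 (65), Cdh11, a cadherin of mesenchymal cells (64), Maf (64) and Sox9, a regulator of cartilage (64), with 62 to 79 in control cells. These genes are the nearest for a stretch of 1.03 to 3.91 Mb each, and whether the counts follow the size of the stretch was not tested.

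Gene lists were read against all gained and lost KO peaks, of which 49.2% were gained. The peaks named for a list were taken by their −log10 q, so strong and strongest here refer to q, and a peak with a lower q can have a higher fold. Around 26 extracellular matrix and fibroblast genes 82 peaks were gained and 321 lost, a gained share of 20.3% (interval 16.7 to 24.5, and 23.5% in control cells). More peaks were lost than gained at 21 of the 26 genes. The matrix protein gene Thbs1 had 7 gained and 51 lost peaks, Tnc 5 and 53, the proteoglycan gene Dcn 9 and 32, the collagen gene Col3a1 6 and 25, and the fibronectin gene Fn1 4 and 25. The strongest lost peak near Col3a1, 41963 bp upstream at chr1:45269150-45270000, had a fold of 8.03 in MEF KO and 8.52 in MEF control. Other strong lost peaks lay near Col6a2 (5.08 in MEF KO and 5.28 in MEF control), Col6a3 (5.40 and 5.68) and Thbs1 (6.31 and 6.28), at 45412, 93581 and 152409 bp from the start site. Of the start sites, 23 were shared, that of Sparc was gained (4.50 in 72 h KO) and that of Lum was lost (4.27 in MEF KO).

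Lists of mesenchymal regulators also leaned to lost peaks. Around 19 mesenchymal transcription factors, 143 peaks were gained and 264 lost (35.1% gained, 36.8% in control). Strong lost peaks were near Osr1 (6.14 in MEF KO, 6.66 in MEF control) and Msx2 (4.66 and 4.33), and strong gained peaks near Tbx18 (7.41 in 72 h KO, 7.16 in 72 h control) and Zeb2 (6.70 and 6.22). These lay 328429, 247929, 270232 and 1041433 bp from the start sites of Osr1, Msx2, Tbx18 and Zeb2. Twist1, a driver of mesenchymal identity, had 10 gained and 28 lost peaks, and Zeb2 46 and 56. The 11 RUNX, TEAD and CEBP genes had 44 gained and 75 lost peaks (37.0%, 38.0% in control). The strongest were a gained peak near Runx2 (6.89 in 72 h KO, 6.06 in 72 h control) and lost peaks near Runx1 (4.63 in MEF KO, 4.82 in MEF control), Tead1 (4.15 and 4.14) and Cebpd (6.87 and 7.08), of which the Runx1 peak lay 360586 bp and the Runx2 peak 78930 bp from the start site. The 12 AP-1 genes had 30 gained and 53 lost (36.1%, 36.5% in control). Near these, the strongest were gained peaks nearest to Jun (157461 bp off, 5.28 in 72 h KO, 5.44 in 72 h control) and Jdp2 (6.29 and 6.88) and lost peaks nearest to Fosl1 (3.97 in MEF KO, 4.39 in MEF control) and Batf2 (3.25 and 3.27). The start site of Atf3, a stress-induced AP-1 partner, had a peak within 1000 bp of fold 5.74 in MEF KO and 5.81 in MEF control, none in 72 h KO and one of 4.40 in 72 h control, while all 3 lost KO peaks assigned to Atf3 had a counterpart in control cells.

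**Figure D5:**
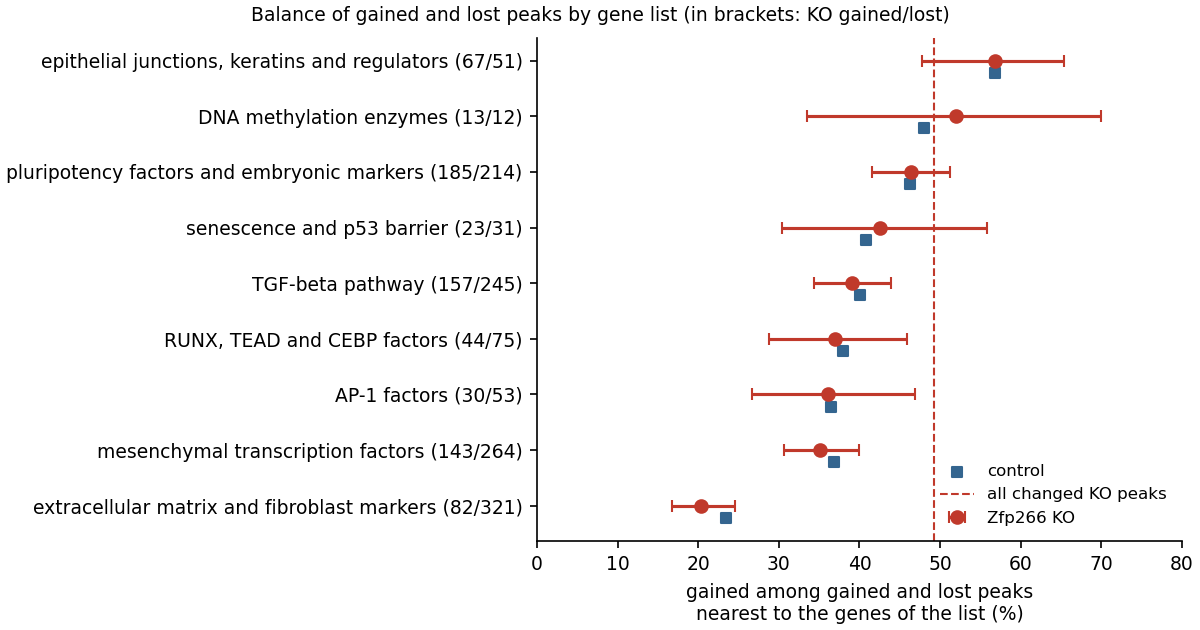
Percent of gained among gained and lost peaks nearest to the genes of each list, for KO (with 95% Wilson intervals) and control. The extracellular matrix and fibroblast list is lowest at 20.3% in KO and 23.5% in control, and the dashed line marks the 49.2% of all gained and lost KO peaks.

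The TGF-beta pathway, which maintains the mesenchymal state, had 157 gained and 245 lost peaks near 20 genes (39.1%, 40.1% in control), and all 20 start sites were shared. A strong lost peak lay within the receptor gene Tgfbr3, 75926 bp from its start site (5.47 in MEF KO, 5.54 in MEF control). For the receptor gene Tgfbr2 the strongest lost peak was 672447 bp upstream, inside Rbms3 (4.94 and 4.96), and for the inhibitor gene Smad7 it was 79591 bp downstream, inside Ctif (5.81 and 5.77, with a 72 h control peak of 1.84). A gained peak 189392 bp upstream of the ligand gene Inhba was the strongest of the list (7.83 in 72 h KO, 7.84 in 72 h control). Tgfbr2 was the nearest gene to 20 gained and 52 lost peaks.

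Pluripotency genes were mixed. Around 29 pluripotency factors and embryonic markers 185 peaks were gained and 214 lost (46.4%, interval 41.5 to 51.3, and 46.2% in control). By gene, 14 of the 29 had more gained than lost peaks, 9 had more lost and 6 had equal numbers, with a median of 4 gained and 1 lost per gene. Klf4 had 13 gained and 40 lost peaks, Klf5 12 and 31 and Tbx3 11 and 40, while Zfp42 had 11 gained and 1 lost, the gene of the germ layer factor Otx2 10 and 1, Dppa4 21 and 4 and Tet2 18 and 9. The strongest gained peaks were near Tfcp2l1, a naive pluripotency factor (7.11 in 72 h KO, 7.95 in 72 h control), and within Tet2 (6.27 and 6.39), and the strongest lost peaks near Klf4 (6.41 in MEF KO, 7.16 in MEF control) and Klf5 (5.90 and 6.36). The Tfcp2l1 peak lay 61987 bp, the Klf4 peak 199811 bp and the Klf5 peak 326175 bp from the start site.

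At the start sites of this list 16 were shared, 3 gained, 1 lost and 6 had no peak in the KO lists. The gained ones were Pou5f1, which encodes OCT4 (2.84 in 72 h KO, 2.56 in 72 h control, 1.63 in MEF control, none in MEF KO), the methylcytosine dioxygenase gene Tet1 (2.77 in 72 h KO, 2.90 in 72 h control) and the growth factor gene Gdf3 (3.88 and 3.54). The start site of Dppa5a was lost (4.19 in MEF KO). Nanog, a core pluripotency gene, had no start site peak in any list. The transgene carries the coding sequences of Pou5f1, Sox2, Klf4 and Myc, and whether its reads add to peaks over their exons was not tested. Of 8 markers of pluripotent cells taken alone, 43 peaks were gained and 17 lost (71.7%, 68.3% in control), with 21 of the gained ones near Dppa4 and 11 near Zfp42. More were gained at 4 of the 8 genes and more were lost at 3.

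The gained share near epithelial genes was not told apart from that of all peaks. Around 28 junction, keratin and regulator genes 67 peaks were gained and 51 lost (56.8%, interval 47.8 to 65.4), with the same share in control. Strong gained peaks were near Ehf, an epithelial ETS factor (6.79 in 72 h KO, 5.88 in 72 h control), Perp, a desmosome gene (5.02 and 5.09), Grhl1 (4.45 and 4.53) and Epcam, an adhesion gene (4.54 and 4.82). The gained peak upstream of Grhl2 described above had a higher fold (8.84) but a lower −log10 q than these. The start site of Cdh1, which encodes E-cadherin, had a fold of 4.61 in MEF KO and 2.70 in 72 h KO, and 4.65 and 2.78 in control. The start site of Rab25 was gained (2.20) and that of Crb3, a polarity gene, was lost (5.27 in MEF KO), although 0 lost peaks were assigned to Crb3.

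The remaining 2 lists held few peaks. The 6 DNA methylation enzyme genes had 13 gained and 12 lost peaks (52.0%, 48.0% in control), with a gained peak within Dnmt1 (2.45 in 72 h KO, 2.38 in 72 h control) and lost peaks within Tet3 (5.09 in MEF KO, 5.18 in MEF control), near Dnmt3a, 76184 bp upstream inside Dtnb (6.38 and 6.67), and within Dnmt3b (2.52 and 2.75). The 10 senescence and p53 genes had 23 gained and 31 lost peaks (42.6%, 40.8% in control). The strongest gained peaks were near Gadd45a (6.74 in 72 h KO, 6.47 in 72 h control), Rb1 (4.73 and 4.76) and Ccnd1 (98695 bp off, 5.12 and 5.48), and the strongest lost peak near Cdkn2a, a barrier to reprogramming (6.56 in MEF KO, 6.63 in MEF control). Across the 9 lists the gained share in KO was within 5 percentage points of that in control.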

How the data were processed

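Omni-ATAC-seq was analysed in 12 mouse libraries, 3 in each of 4 groups taken from the sample titles. The labels do not say whether the 3 came from separate embryos, so p-values measure the spread between these libraries only.

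The authors removed adapters with Cutadapt, aligned reads with BWA to GRCm38 and discarded reads that were duplicates, mitochondrial, in blacklisted regions or not properly paired. Broad peaks were called with MACS2 at an FDR under 0.1 on merged replicates. The deposited peak lists give each peak's fold, a ratio over local background, and its −log10 q. The deposited tables give raw counts from Rsubread per library over intervals with a DESeq2 FDR under 0.05, and the same counts divided by a size factor, a normalised signal. The authors' fold change and p-value columns were not used, and neither were the gapped peak lists, which hold the same peaks. Intervals that did not pass that FDR were not analysed here.

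Gained, lost and shared peaks were set by 1 bp overlap and a −log10 q of 5, and 0 columns of the tables lacked a sample. Where several peaks overlapped, the largest fold was taken. Genes were from GENCODE M21, by nearest protein-coding start site. Motif strings were read in the GRCm38 reference. Size factors, recovered as raw over normalised count, ran from 0.630 to 1.46. No 2 replicates agreed within counting error (the chi-square statistic divided by its degrees of freedom was 1.13 to 1.69). The intervals listed in both tables were tested with edgeR 4.0.16 (quasi-likelihood, two-sided, all 12 libraries, R 4.3.3) and these size factors. DESeq2 1.42.0 was an alternative. Tested on simulated counts, edgeR recovered 30 of 30 changed intervals among the 70 with 1 false call. Peaks of 1 list are not replicates, so no test was run on them, and shares have 95% Wilson intervals. Python 3.11.15, numpy 2.4.6, pandas 2.3.3 and scipy 1.17.1 were used.

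The members, gene lists, motif strings and alternatives were chosen with earlier results of these data known. Named were the 8 gained and 8 lost peaks of largest fold within 50 kb of a start site, the 8 genes with the most peaks of each kind, up to 4 genes per list by the −log10 q of their strongest peak, the 6 gained and 6 lost peaks without a counterpart of largest fold, the 4 shared peaks with the largest change each way, the 4 tested intervals with the smallest adjusted p each way, and Zfp266. The result at 1 interval is not reported here. Other genes of the lists were named after their values were seen. Alternatives were other thresholds, overlaps, windows, gene assignments, scalings and tools, a replicate block, and leaving out each KO library.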

Additional observations from a re-analysis of the deposited data

Results flagged for a closer look

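At 3 of the named intervals tested in all 12 libraries, the change from MEF to 72 h differed between KO and control by the interaction term of the edgeR fit, adjusted over the 70 intervals. The KO minus control difference in log2 change was −0.71 at Spink6 (adjusted p = 0.00978), −0.84 at Fryl (adjusted p = 0.0013) and −0.53 at Adsl (adjusted p = 0.0211). At Spink6 the mean normalised count was 20.2 ± 5.58 in MEF control and 43.0 ± 9.12 in MEF KO (SD, n = 3), and 458.6 ± 22.6 and 610.7 ± 26.6 at 72 h. At Fryl it was 17.0 ± 5.71 and 42.5 ± 4.75 in MEFs, and 283.4 ± 2.75 and 402.0 ± 9.96 at 72 h. At Adsl it was 95.4 ± 12.9 and 250.9 ± 7.56 in MEFs, and 40.8 ± 9.48 and 75.3 ± 4.93 at 72 h. KO was above control in both states at all 3, and the ratio was larger in MEFs. At 3 further intervals, named after their values were seen, KO fell and control rose. The KO minus control difference was −2.24 at Chd7 (adjusted p = 2.51e-07), −2.17 at C77080 (adjusted p = 8.34e-07) and −0.75 at Ccdc58 (adjusted p = 0.00133), and with TMM scaling the rise in control passed at none of the 3. In the other direction, the KO change was above the control change by 1.44 at Btbd9 (adjusted p = 8.31e-16), 1.25 at Rasl10a (adjusted p = 1.41e-06), 1.05 at Scd3 (adjusted p = 4.1e-06) and 1.35 at Cap2 (adjusted p = 3.62e-05), the 4 smallest of 9. The intervals were listed for KO against control differences in the same libraries, so these tests are not independent of the listing.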

How the results depend on the processing

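Of 95 alternative values computed, 68 stayed close to the main value and 27 moved. Close meant within 1.5 times a count, within the interval of a share, or within the standard deviation across peaks of a median log2 change. The order of close values did not hold throughout: KO had more lost than gained peaks, but without a q minimum 89637 gained and 88248 lost, and at equal list length 58676 and 55155. The lost share without a counterpart, 14.9% in KO and 14.6% in control, was 14.2% and 16.5% without a q minimum. In that setting 14047 KO gained, 19408 control gained and 15095 control lost peaks had no counterpart. At a minimum of 10, 38878 were gained and 40173 lost in KO, with 4120 KO gained and 5634 control lost peaks without a counterpart. The shares without a counterpart were 7.11% (gained) and 7.93% (lost) when a counterpart of any q counted, 10.6% and 16.3% at a minimum of 10, and 12.8% and 16.1% when 50% of a peak had to be covered. Over the whole peak in place of 400 bp, gained and lost peaks held AP-1 in 21.7% and 43.5% (all KO peaks, 34.3%), KLF in 32.7% and 16.4% (all, 32.3%), and SOX in 19.8% and 13.9% (all, 16.0%). The B1 string was then in 4.88% of peaks gained in both arms, 8.13% of KO gained peaks without a counterpart and 2.50% of lost peaks (all, 5.07%, and shared, 6.96%), and the B2 string in 8.97% of KO gained peaks without a counterpart and 3.59% of lost peaks (all, 5.52%). Between KO gained peaks without a counterpart and those gained in both arms, 3 strings were then in reverse order to that at 400 bp. These were AP-1 (21.1% and 21.8%), OCT (5.30% and 6.39%) and KLF (31.1% and 32.9%). With peaks assigned by gene body, the 18 counts of list genes with a gained or a lost peak stayed within 1.5 times, but the gained share moved from 52.0% to 76.5% for DNA methylation enzymes and from 76.0% to 57.1% for neural markers.

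At the 70 intervals, TMM scaling gave 29 rises and 31 falls. Leaving out each KO library gave 41 to 46 rises and 14 to 16 falls, and DESeq2 45 and 15. With replicate number as a block, 42 rose and 14 fell. The numbers share no named origin, and same-numbered MEF KO and 72 h KO libraries deviated from their group means with correlations of −0.113, −0.0718 and 0.0204. Not every library correlated best with its own number. No replicate could be left out of the merged peak lists, so that alternative was not run. Whether depth limits the weak peaks of the 72 h lists, whose summed size factors were lower, was not tested.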

Other observations

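The start sites of genes that mark other lineages were open in both KO lists at 6 of 6 neural, 6 of 7 trophectoderm and primitive endoderm, 3 of 6 skeletal muscle, 3 of 7 endothelial and 1 of 7 macrophage markers, beside 65.1% of all protein-coding genes. For the neural markers, 19 peaks were gained and 6 lost (76.0% gained, interval 56.6 to 88.5, and 70.8% in control cells). Most of the gained ones lay near Pax6, a neural and eye regulator (8 gained and 2 lost), Neurod1 (5 and 0) and Sox1 (5 and 2), and the Neurod1 start site had a fold of 2.04 in MEF KO, 2.42 in 72 h KO, 1.83 in MEF control and 2.14 in 72 h control. The fold at the Pax6 start site was also higher at 72 h (2.00 in MEF KO, 2.49 in 72 h KO). It was lower at those of Gfap (5.46 and 2.65), Tubb3 (2.73 and 2.20), Sox10 (2.33 and 1.98) and Sox1 (2.44 and 2.25).

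Near 6 skeletal muscle markers 10 peaks were gained and 14 lost (41.7%, and 41.7% in control cells). The start site of Myog, a muscle differentiation factor, was gained in both arms, with a fold of 2.63 in 72 h KO and 2.59 in 72 h control. The other muscle start sites went the other way in KO. The fold was lower at 72 h at Ckm (5.39 to 2.80), Pax7 (2.68 to 2.28) and slightly at Des (3.00 to 2.96). Myod1 and Myf5 had peaks below the threshold in MEF KO (2.08 and 2.30) and none at 72 h. Near 7 trophectoderm and primitive endoderm markers 27 were gained and 32 lost (45.8%, and 46.8% in control cells). The start site of Gata4, an endoderm factor, had a fold of 3.63 in MEF KO, 1.88 in 72 h KO, 2.60 in MEF control and 2.03 in 72 h control, and that of Elf5, a trophoblast factor, was lost in both arms (3.69 in MEF KO and 3.88 in MEF control). In KO the fold was also lower at 72 h at Sox17 (2.60 to 2.01), Sox7 (3.28 to 2.43) and slightly at Gata6 (2.755 to 2.67). It was higher at Cdx2 (2.49 to 2.84) and Eomes (3.00 to 3.15). Near 10 fibroblast markers 37 peaks were gained and 91 lost (28.9%, and 32.4% in control cells), near 7 macrophage markers 24 and 39 (38.1%, and 39.4%), and near 7 endothelial markers 53 and 71 (42.7%, and 46.0%). These markers were named after their values were seen.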
